A study of Homo sapiens with 32 samples.

Results

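The RNAs described here are those encoded by mitochondrial DNA, taken as every gene whose symbol, looked up from the Ensembl identifier of its row, starts with MT-. They numbered 15 of the 7978 genes with counts, namely 13 protein-coding genes and the 2 ribosomal RNA (rRNA) genes, and they held 47 of the 26104 merged peaks. A merged peak is a stretch of a transcript in which N6-methyladenosine (m6A) signal was called and in which reads were then counted in every library. The symbol table lists 37 MT- genes, and none of its 22 MT- tRNA genes had a merged peak. RNA had been prepared from 2 human embryonic stem cell lines, H1 and MEL1, as undifferentiated cells (S0) and after differentiation in vitro. The differentiated stages were S3, at which cells resemble posterior foregut, S4, that of pancreatic progenitors, and S6, that of immature β-like cells. No gene or drug was compared. With 2 replicates for each line and stage there were 16 RNA preparations, each sequenced as an input library and as an m6A immunoprecipitate (IP). The study calls its replicates biological and independent, and what set them apart, such as separate differentiations, is not given in the labels. The p-values measure the spread between these preparations.

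Mitochondrial DNA is transcribed from both strands into long RNAs that are cut into rRNAs, tRNAs and mRNAs inside the organelle. Its mRNAs encode core subunits of respiratory chain complexes I, III and IV and of the ATP synthase, complex V, while the other subunits and all the proteins that copy, transcribe and process mitochondrial DNA are encoded in the nucleus. The METTL3 and METTL14 complex that writes most m6A in mRNA acts in the nucleus, and a mature β-cell depends on respiration to couple glucose to insulin release. Most mitochondrial mRNAs carry a short poly(A) tail, whereas MT-ND6, encoded on the opposite strand from the remaining mRNAs, lacks a stable one. MT-ATP8 overlaps MT-ATP6 and MT-ND4L overlaps MT-ND4, so counts within each of these pairs cannot be fully told apart.

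The input libraries held 2652830 to 6879256 counts in merged peaks and the IP libraries 2378881 to 15674899, the lowest being both MEL1 S4 IP libraries. Stage labels were checked against marker genes in the input: of the posterior foregut markers with counts, 6 of 6 were higher at S3 than at S0, 5 of 6 measured markers of undifferentiated cells were lower at S6 than at S0, and 5 of 5 β-like cell markers were higher. Of the β-like cell markers, 3 of 5 were already higher at S3 than at S0, and CHGA was lower. At S4 against S3, 2 of 6 posterior foregut markers were lower and 1 higher and CHGA was higher, while 0 of 4 pancreatic progenitor markers were called by edgeR (0 at an unadjusted p under 0.05), 3 of them having been higher at S3 than at S0. Counts of genes and peaks rest on edgeR's quasi-likelihood test, in which a gene or peak is called when its Benjamini-Hochberg adjusted p is under 0.1 and it moved by at least 2-fold. In these bulk samples, fewer cells of a type and less RNA per cell cannot be told apart.

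Mitochondrial genes took a large share of the input counts in merged peaks in undifferentiated cells and a smaller share in β-like cells. Reads outside merged peaks are not in these totals, so the shares are not those of all RNA. At S0 the share was 27.0% and 26.4% in the H1 replicates and 41.0% and 32.5% in the MEL1 replicates. At S3 it was 26.8% and 27.5% in H1 but 15.3% and 12.9% in MEL1. At S4 the lines were close, with 17.7% and 15.4% in H1 and 16.5% and 15.7% in MEL1. At S6 the share was 11.6% and 11.8% in H1 and 16.4% and 15.8% in MEL1. Every S6 library lay below every S0 library, and at S3 the lines stood on either side of the S4 values.

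The stage means, in order from S0 to S6, were 31.7% ± 6.76, 20.6% ± 7.57, 16.3% ± 0.983 and 13.9% ± 2.57 (SD, n = 4 libraries each). S6 was 17.8 percentage points below S0 (two-sided exact permutation test, p = 0.0286, the smallest that 4 against 4 libraries allow, and 0.114 after Benjamini-Hochberg adjustment over the 4 comparisons). With protein-coding genes alone the same comparison gave -11.4 points, and S3 against S0 gave -8.12 points, and both passed (both adjusted exact permutation p = 0.0571). For all 15 genes the differences of S3 from S0 (-11.1 points, adjusted exact permutation p = 0.267), S4 from S3 (-4.29 points, 0.429) and S6 from S4 (-2.43 points, 0.267) did not pass the test. It pools the lines, so the gap between H1 and MEL1 at S3 is part of the spread it uses. The H1 and MEL1 means over stages were 20.5% and 20.8%, a difference well within the spread (exact permutation test within stages, p = 0.961).

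**Figure D1:**
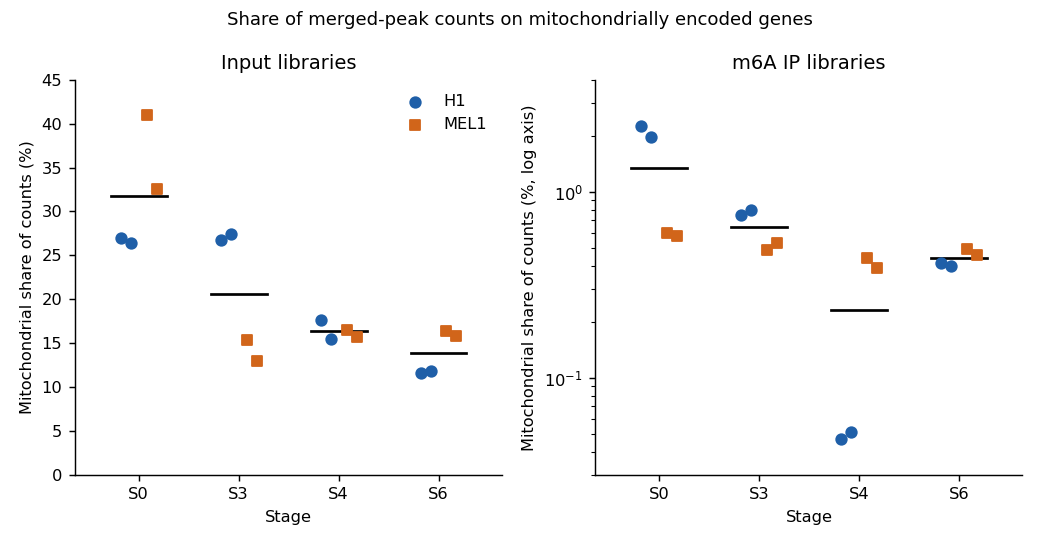
Share of merged-peak counts on the 15 mitochondrially encoded genes in each input library (left, percent) and m6A IP library (right, percent on a log axis), by stage, with H1 as circles, MEL1 as squares and a line at the mean of the 4 libraries. Input shares run from 41.0% in a MEL1 S0 library to 11.6% in an H1 S6 library, and the H1 S4 IP libraries sit lowest on the right, near 0.05%.

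The lines reached the lower share at different stages. From S0 to S3 the input share moved by 0.412 percentage points in H1 and by -22.6 points in MEL1, a difference between lines of 23.0 points (exact permutation test of the line labels, p = 0.0556, the smallest possible with 36 arrangements, adjusted 0.222). From S3 to S4 it moved by -10.6 points in H1 and by 1.99 points in MEL1 (exact permutation p = 0.222). With 2 preparations for each line and stage, no such difference of shares could pass the threshold after adjustment over the 4 comparisons unless several reached the smallest p.

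Gene by gene, 14 of the 15 mitochondrial genes were lower at S6 than at S0, where 13.8% of the 7973 genes tested were called lower and 31.4% were called in either direction. The median log2 fold change was -1.47 for the 15 genes and 0.03 for all genes. Between S0 and S3, 5 were called lower (13.8% of all genes in that direction), and the median was -0.89 against -0.02. No mitochondrial gene was called between S3 and S4 (1.84% of all genes called) or between S4 and S6 (5.18%), with medians of -0.61 and -0.13. At an unadjusted edgeR p under 0.05 there were 4 and 2 genes, all lower at the later stage, and DESeq2 called 0 and 1. These levels are relative to the other RNAs of a library. With total counts as the scale, 9 genes were called lower between S0 and S6 and 3 between S0 and S3, and the median of all genes moved to 0.34 and 0.22. Scaled to the mitochondrial total instead, which centres the 15 genes near 0 by construction, 1 gene was called between S0 and S6.

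Among the complex I subunits, MT-ND3 had the largest change. Its input level was 1372 and 1324 CPM (counts scaled to a common library total) in H1 S0 and 6956 and 5206 CPM in MEL1 S0. At S3 it was 1232 and 1329 CPM in H1 and 678 and 573 CPM in MEL1. At S4 the order of the lines turned, with 642 and 565 CPM in H1 and 1636 and 1726 CPM in MEL1. At S6 all 4 libraries lay between 519 and 607 CPM, below all S0 libraries, and the log2 fold change from S0 was -2.86 (SE 0.54, edgeR adjusted p = 0.000597).

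MT-ND6, the complex I subunit encoded on the opposite strand, fell next most. It was at 217 and 217 CPM in H1 S0 and 370 and 317 CPM in MEL1 S0. At S6 it was at 86 and 80 CPM in H1 and 74 and 54 CPM in MEL1, with no overlap between the stages (log2 fold change -2.33, SE 0.43, edgeR adjusted p = 0.000485). The strand setting of the counting is not stated in the sources used here, so reads from the facing transcripts may be included in the MT-ND6 counts. MT-ND1, MT-ND2, MT-ND4 and MT-ND4L, further core subunits of the same complex, fell by 1.24, 1.34, 1.24 and 1.07 on the log2 scale. MT-ND5 was not called: its S6 values were 5614 and 5651 CPM in H1 and 10293 and 9989 CPM in MEL1 against 11747 and 11421 CPM in H1 S0 and 12942 and 10095 CPM in MEL1 S0 (log2 fold change -0.88, SE 0.35, edgeR adjusted p = 0.0531).

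The ATP synthase subunits MT-ATP6 and MT-ATP8 fell between S0 and S6 by 1.95 and 1.73 on the log2 scale (edgeR adjusted p = 0.000224 and 0.000149). MT-ATP6 was at 16014, 15604, 36324 and 26088 CPM in the 4 S0 libraries, H1 first, and at 7251, 7510, 7603 and 7291 CPM at S6. The S6 libraries of both lines thus lay within a narrow range, while the S0 libraries differed by line. Of the complex IV subunits, which carry the oxygen-reducing centre, MT-CO2 fell by 1.81 (adjusted p = 0.000208), MT-CO3 by 1.47 (0.00752) and MT-CO1 by 1.22 (0.00328). MT-CO1 was at 60934 and 60149 CPM in H1 S0 and 62005 and 49610 CPM in MEL1 S0, and at 25226 and 25891 CPM in H1 S6 and 35955 and 34505 CPM in MEL1 S6. MT-CYB, the mitochondrially encoded subunit of complex III, had a log2 fold change of -1.07 (adjusted p = 0.0102).

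The rRNAs of the mitochondrial ribosome fell by the same amount, MT-RNR1 by 1.65 (edgeR adjusted p = 0.000147) and MT-RNR2 by 1.65 (adjusted p = 0.00285) on the log2 scale. MT-RNR2 was at 68782 and 66415 CPM in H1 S0 and 109324 and 88035 CPM in MEL1 S0, and at 27521 and 28101 CPM in H1 S6 and 37448 and 37314 CPM in MEL1 S6. The S0 and S6 libraries did not overlap. Together the rRNAs took 33.4% ± 1.06 of the mitochondrial input counts at S0 and 35.9% ± 4.07 at S3, then 40.1% ± 1.53 at S4 and 30.1% ± 1.11 at S6 (SD, n = 4), and the differences of S6 from S4, -10.0 points, and of S6 from S0, -3.30 points, passed the test (both adjusted exact permutation p = 0.0571). The RNA had been selected for poly(A), so these counts are of the rRNA that remained after that step.

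**Figure D2:**
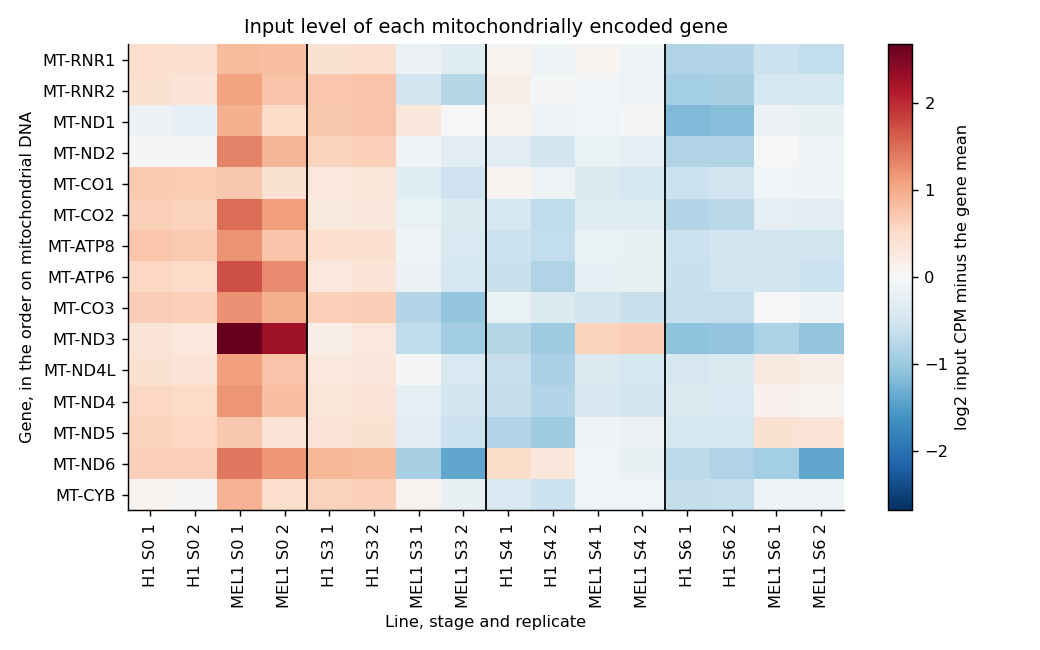
Input level of each of the 15 genes (rows, in their order on mitochondrial DNA) in each of the 16 input libraries (columns, by stage, line and replicate), as log2 CPM minus the mean of that gene over the libraries. MT-ND3 in the MEL1 S0 libraries (6956 and 5206 CPM) is the darkest red, and the S6 columns are mostly blue.

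The genes did not change at the same stage in both lines. When every line and stage was given its own mean in the model, the change from S0 to S3 was more negative in MEL1 than in H1 for all 15 genes, and the difference was called for 14, where 17.5% of all genes were called in that direction and 34% in either. In H1 the changes ran from -0.50 to 0.80 on the log2 scale with a median of -0.19, and in MEL1 from -3.67 to -0.97 with a median of -1.72. The exception to the call was MT-CO1, whose difference was 0.89. From S3 to S4 the order turned: H1 changed by -1.53 to -0.61 and MEL1 by -0.07 to 1.58, and the difference was called for 13 genes, all but MT-CO1 and MT-ND1 (6.08% of all genes in that direction, 9.65% in either). The S3 libraries of either line enter both of these comparisons.

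MT-ND3 had the largest line difference at both steps. Its log2 change from S0 to S3 was -0.19 (SE 0.19) in H1 and -3.67 (SE 0.21) in MEL1, and its change from S3 to S4 was -1.36 (SE 0.19) in H1 and 1.58 (SE 0.19) in MEL1. Within the mitochondrial input counts MT-ND3 took 1.70% and 1.60% in MEL1 S0 and 0.99% and 1.10% in MEL1 S4, and between 0.34% and 0.51% in the 12 other libraries. MT-ND6 showed the same order, with 259 and 253 CPM in H1 S3 against 76 and 53 CPM in MEL1 S3, a difference of 1.94 on the log2 scale (SE 0.21, edgeR adjusted p = 1.77e-07). Fitted in H1 alone with edgeR, 0 of the 15 genes moved by 2-fold between S0 and S3 and so none was called (23% of all genes called), although 8 had an unadjusted p under 0.05, of which 5 were lower. In the same fit 11 were lower at S4 than at S3 (2% of all genes lower). Fitted in MEL1 alone, 15 were lower at S3 than at S0 (22.2% of all genes lower), and 2, MT-ND3 and MT-ND6, were higher at S4 than at S3 (7.06% higher). Without either MEL1 S3 library the pooled count of 5 between S0 and S3 was 2 and 1, without MEL1 S0 replicate 1 it was 1, and without either H1 S3 library it was 8.

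Over the whole course from S0 to S6, the difference between lines in the change was called for 2 genes, MT-ND3 (1.89) and MT-ND5 (-1.03), where 25.1% of all genes were called. Between S4 and S6 it was called for MT-ND1 (-1.04) and MT-ND3 (1.36), with 15.3% of all genes called. Compared directly, H1 was lower than MEL1 at S0 for 6 genes, of which MT-ND3 (-2.49) and MT-ND2 (-1.51) differed most, with 15.3% of all genes called. At S3 H1 was higher for MT-CO3, MT-ND6 and MT-RNR2 (29.8% called). At S4 H1 was lower for MT-ND3 and MT-ND5 (34% called), and at S6 for 5 genes, MT-ND1, MT-ND2, MT-ND4L, MT-ND5 and MT-CO3 (22.4% called). Over all stages MT-ND3 was the one gene called between the lines (-1.06, SE 0.39, edgeR adjusted p = 0.0411), where 19.1% of all genes were called, and it was not called with total counts as the scale, nor without either H1 S0 library, either H1 S4 library, MEL1 S0 replicate 1 or MEL1 S4 replicate 2.

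**Figure D3:**
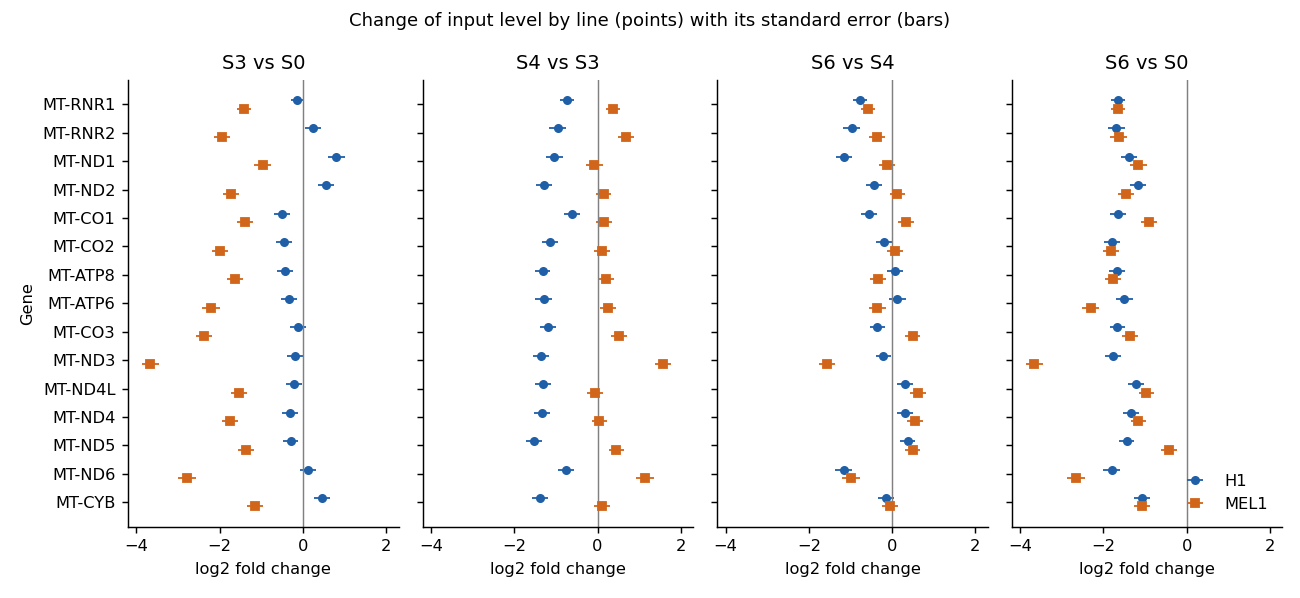
Log2 fold change of the input level of each gene in H1 (circles) and MEL1 (squares) for the 4 stage comparisons, with bars for 1 standard error from edgeR. MEL1 lies left of H1 for every gene between S0 and S3 and right of it between S3 and S4, and the lines largely coincide between S0 and S6 apart from genes such as MT-ND3 and MT-ND5.

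In the m6A IP libraries the mitochondrial share was far lower than in the input of the same preparation. At S0 it was 2.25% and 1.96% in H1 and 0.602% and 0.574% in MEL1, and at S3 0.751% and 0.798% in H1 and 0.487% and 0.532% in MEL1. At S4 it was 0.0465% and 0.0510% in H1 but 0.442% and 0.388% in MEL1. At S6 it was 0.414% and 0.396% in H1 and 0.492% and 0.459% in MEL1. The H1 S4 libraries thus lay apart from all others, below them by several fold, while MEL1 varied little over the stages.

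The share was 12.0-fold to 379-fold higher in the input than in the IP, and the log2 ratio of IP to input share averaged -5.40 ± 1.33 (SD, n = 16 preparations, 16 of 16 below 0, exact sign-flip permutation test, p = 3.05e-05, the smallest it can give). Both shares are of counts in merged peaks, which were called on m6A signal, so the test against 0 does not measure depletion relative to all RNA. For comparison, 20 cytosolic ribosomal protein genes, a nuclear list chosen after the values had been seen, had log2 ratios of -2.42 to -0.83 in the same preparations. The mitochondrial ratio was -3.58 and -3.75 in H1 S0 and -6.09 and -5.82 in MEL1 S0. At S3 it was -5.16 and -5.11 in H1 and -4.98 and -4.60 in MEL1. At S4 it was -8.57 and -8.24 in H1 and -5.22 and -5.34 in MEL1, and at S6 all 4 preparations lay between -5.11 and -4.81. The ribosomal protein genes had ratios of -2.42 and -2.18 in H1 S4 and -1.86 and -1.87 in MEL1 S4, and the part of general IP efficiency in the mitochondrial values was not tested.

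The ratio was lower at S4 than at S3 by 1.88 on the log2 scale and higher at S6 than at S4 by the same amount (both adjusted exact permutation p = 0.0571). Both results carry the H1 S4 preparations: in H1 alone the changes were -3.27 and 3.55, and in MEL1 alone -0.49 and 0.20. With stage labels permuted only within lines the adjusted p was 0.111, above the threshold. In each line both S4 preparations lay below those of S3 and S6, so the raw p was already the smallest possible. Passing would have needed more of the 4 comparisons to reach it. S3 against S0 (-0.15) and S6 against S0 (-0.16) did not differ beyond the spread (adjusted p = 0.771 for both), and there the lines moved in opposite directions, by -1.46 in H1 and 1.17 in MEL1 for S3 against S0 and by -1.18 and 0.87 for S6 against S0. The difference between lines in these changes did not pass the threshold for any of the 4 comparisons (adjusted exact permutation p of 0.111 to 0.333, with 0.0556 the smallest raw p possible).

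**Figure D4:**
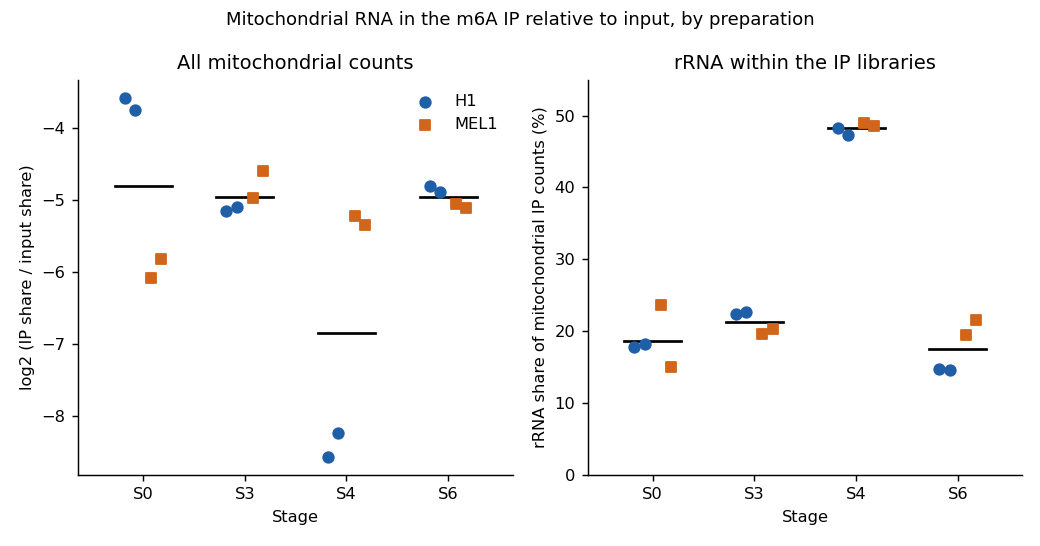
Log2 ratio of the mitochondrial share in the IP to that in the input of the same preparation (left), and rRNA as a percent of the mitochondrial counts in each IP library (right), by stage, with H1 as circles, MEL1 as squares and a line at the mean of 4. The H1 S4 preparations lie lowest on the left at -8.57 and -8.24, whereas on the right the 4 S4 libraries of both lines lie together at 47.4% to 49.0%.

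Within the IP, the S4 libraries of both lines held relatively more rRNA than those of any other stage. rRNA took 48.3% and 47.4% of the mitochondrial IP counts in H1 S4 and 49.0% and 48.6% in MEL1 S4. At the other stages it took 14.6% to 23.6%, so the S4 libraries did not overlap with the rest. The share rose by 27.1 points from S3 to S4 and fell by 30.7 points from S4 to S6 (both adjusted exact permutation p = 0.0571), while S3 and S0 (2.61 points, 0.267) and S6 and S0 (-1.07 points, 0.657) did not differ beyond the spread. The S4 IP libraries held 11661733 and 13999180 counts in H1 and 2483580 and 2378881 in MEL1, and the part of depth in these shares was not tested. This comparison was chosen after the values had been seen. In the input the rRNA share of S4 differed from that of S3 by 4.24 points, which did not pass the test (adjusted exact permutation p = 0.229).

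Expressed per preparation, the log2 IP to input ratio of the mRNAs minus that of the rRNAs was -0.48 ± 0.125 at S4 and averaged 1.05 to 1.15 at S0 and S3 and 1.03 at S6 (n = 4 each). The S4 value was lower than the S3 value by 1.53 and lower than the S6 value by 1.52 (both adjusted exact permutation p = 0.0571). The summed mRNAs at S4 were thus recovered less well than the summed rRNAs relative to their input in 4 of 4 preparations. In the other 12 preparations they were recovered better. The S4 difference did not hold for each mRNA. Averaged over S4, the log2 ratio relative to the mitochondrial total was 3.18 for MT-ND6, 0.47 for MT-CYB, 0.37 for MT-ND5 and 0.18 for MT-ND2. For MT-RNR2 it was 0.16 and for MT-RNR1 0.60, and the remaining mRNAs averaged below both.

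The 15 genes differed among themselves in the IP to input ratio. Measured against the ratio of the mitochondrial total of the same preparation, MT-ND6 had a mean deviation of 1.44 ± 1.25 (SD, n = 16, above in 16 of 16 preparations, exact sign-flip adjusted p = 0.000114 over the 15 genes). Its place at the top rests on S4, where it averaged 3.18 ± 1.45 (SD, n = 4). Over the other 12 preparations it averaged 0.86 ± 0.30, below MT-ND2 at 1.12 ± 0.20, MT-CYB at 1.06 ± 0.12, MT-ND5 and MT-ATP8 at 0.95 each and MT-ND4 at 0.88. MT-CYB at 0.91 ± 0.32 and MT-ND5 at 0.80 ± 0.43 were also above in 16 of 16, and MT-ND2 (0.88), MT-ND4 (0.67) and MT-ATP8 (0.64) were above in 13 to 15. MT-CO1 was below the total in 16 of 16 preparations, with a mean deviation of -0.59 ± 0.28. MT-RNR1 (-0.70) and MT-RNR2 (-0.51) were below in 12 preparations and above in the 4 preparations of S4. MT-ND3 and MT-ND4L did not differ from the total beyond the spread (adjusted exact p = 0.525 and 0.167).

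MT-ND6 did not share the low ratio of the other mRNAs in H1 at S4. Its log2 IP to input ratio there was -4.61 and -3.66, where the other 12 mRNAs ranged from -9.31 to -7.67, and in MEL1 S4 it was -3.97 and -2.43. At S0, S3 and S6 it was -2.78 to -5.53, within or near the range of the other mRNAs. Its IP counts were low, 94 and 190 in H1 S4 and 21 and 54 in MEL1 S4. Those of MT-ND3, one of the mRNAs with a low ratio, were 13 and 14 in H1 S4.

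Every one of the 47 peaks was lower in the IP than in the input at every stage, with 24.9%, 31%, 32.1% and 34.6% of all 26104 peaks lower at S0, S3, S4 and S6. The median log2 ratio of IP to input over the 47 peaks was -4.69, -4.79, -6.85 and -4.87 from S0 to S6 in order of stage, against 0.28, 0.07, -0.30 and -0.12 over all peaks. A merged peak here is thus a counting window, in which the IP held fewer counts than the input after scaling. Peaks are given below by the position, counted along the gene, at which they start in the deposited table, since no chromosome coordinates of a named build were used.

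Between stages, the change in IP relative to input was called lower from S3 to S4 for 16 of the 47 peaks (5.85% of all peaks lower) and higher from S4 to S6 for 11 (5.31% higher), with 1 lower (2.26%). All 16 and all 11 were in mRNAs other than MT-ND6, which had 39 of the peaks. In a fit with each RNA preparation as a block, the counts were 34 lower (6.85% of all peaks) and 29 higher (5.78%), again all in these mRNAs. Without H1 replicate 1 at every stage 0 peaks were called lower from S3 to S4 and 1 higher from S4 to S6, and without H1 replicate 2 it was 1 and 1. The calls over all peaks fell likewise, from 1724 to 24 and 49 for S3 to S4. The median change of the 47 peaks moved less, from -2.04 to -1.72 and -1.81 for S3 to S4 and from 1.84 to 1.39 and 1.5 for S4 to S6. Fitted in MEL1 alone, 29 peaks were lower and 1 higher from S3 to S4 (7.97% of all peaks lower), and 14 were higher and 2 lower from S4 to S6 (5.88% higher). Without MEL1 replicate 1, 6 peaks were called lower from S3 to S4. The 39 mRNA peaks had a median change of -2.18 from S3 to S4, and both MT-ND6 peaks changed by 0.18. The 6 rRNA peaks went both ways, from -1.97 to 1.47, with none called, and their median was 0.00, or -0.67 with the preparation as a block, -1.16 in H1 and 0.15 in MEL1. Under TMM computed within each library type 3 peaks were called lower, under total counts 3, and in DESeq2 7 were lower and 1 higher.

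The peak at position 201 of MT-ND2 had the largest change, -4.49 from S3 to S4 (SE 0.80, edgeR adjusted p = 0.00259) and 4.57 from S4 to S6 (SE 0.80, adjusted p = 0.00214). Its IP counts were 129, 132, 69 and 89 at S3 (H1 first), 2, 1, 0 and 3 at S4 and 46, 50, 59 and 41 at S6, beside S4 input counts of 400, 585, 255 and 211. With IP counts of 3 or fewer the size of the fitted fold depends on the prior count and is no bound. At position 101 of MT-ND3 the IP counts were 386, 417, 355 and 325 at S3 and 6, 8, 14 and 33 at S4, for changes of -3.66 (SE 0.94, adjusted p = 0.0294) and 3.62 (SE 0.94, adjusted p = 0.0305). At both peaks the IP to input ratio of every S4 preparation lay below that of every S3 preparation. At position 1 of MT-ATP8 the changes were -2.93 and 2.97 (adjusted p = 0.0499 and 0.0474), and at position 701 of MT-ND1 -2.78 and 2.59 (adjusted p = 0.0299 and 0.0428).

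The peak at position 1301 of MT-RNR2 was the rRNA peak called from S4 to S6, and the lines differed there. Its log2 IP to input ratio was -7.04 and -6.78 in H1 S3, -7.64 and -7.86 in H1 S4, -6.88 and -6.65 in MEL1 S3 and -3.94 and -3.44 in MEL1 S4. At S6 it was -7.39 and -7.50 in H1 and -7.08 and -6.87 in MEL1. MEL1 at S4 stood apart. The change from S3 to S4 was not called (1.47, edgeR adjusted p = 0.222), and the fall from S4 to S6 was called in the fit of both lines (-1.94, SE 0.66, adjusted p = 0.0923) but was 0.04 in H1 alone. It was not called with the preparation as a block, where 0 of the 6 rRNA peaks were called and 1, this one, had an unadjusted edgeR p under 0.05.

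No peak was called between S0 and S3 (0.0498% of all peaks called) or between S0 and S6 (1.26%) in the edgeR fit of both lines, where 0 and 1 peaks had an unadjusted p under 0.05, nor in DESeq2 or with preparations as blocks. The lines moved in opposite directions in these comparisons. Fitted alone, H1 had 39 peaks lower at S3 than at S0 (5% of all peaks lower) and MEL1 had 35 higher (2.73% higher). At S6 against S0, H1 had 24 lower (9.33%) and MEL1 20 higher (2.49%). The difference between the lines was itself called for 44 of the 47 peaks in S3 against S0, all with H1 lower (6.25% of all peaks in that direction, 12.2% in either), and for 34 in S6 against S0, all with H1 lower (2.54%, 6.52% in either). It was called for 34 peaks in S4 against S3 (H1 lower, 14%) and 40 in S6 against S4 (H1 higher, 12.3%).

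The line differences at single stages had the same pattern over peaks. At S0 the median log2 IP to input ratio of the 47 peaks was -3.81 in H1 and -6.48 in MEL1, and 45 peaks were called higher in H1 (10.7% of all peaks). At S3 the medians were -4.89 and -4.67, and 3 peaks were called lower in H1 (0.801%). At S4 they were -8.44 and -6.18 with 39 lower in H1 (17.7%), and at S6 -4.45 and -5.44 with 18 higher in H1 (2.6%). At S4 40.2% of all peaks were called between the lines in either direction, so the mitochondrial peaks were not alone in differing there.

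**Figure D5:**
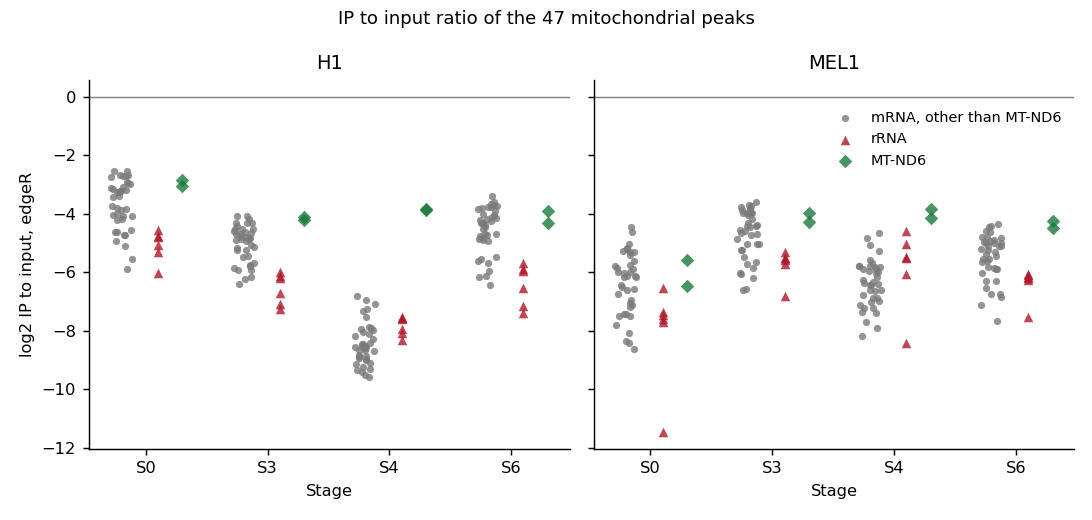
Log2 ratio of IP to input of each of the 47 mitochondrial peaks at each stage in H1 (left) and MEL1 (right), from edgeR, for rRNA (triangles), MT-ND6 (diamonds) and the other mRNAs (circles). All points lie below 0, and in H1 S4 the MT-ND6 peaks lie well above the other mRNA peaks. The lowest MEL1 S0 triangle is a peak of MT-RNR2 with 0 IP counts in both libraries, so its position depends on the prior count.

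Nuclear genes of mitochondrial function are described from lists of their subunits and factors, as counts in the input between S0 and S6, beside 17.5% of all genes called higher and 13.8% called lower. Of the nuclear subunits of complex I, 10 of 37 had counts and 3 were lower, with a list median of -0.50. NDUFS5, an accessory subunit, changed by -1.62 (SE 0.18, edgeR adjusted p = 6.89e-06) and NDUFC1, another, by -1.30 (SE 0.39, adjusted p = 0.0130). None of the 4 complex III, 3 complex IV and 2 complex V subunits tested was called by edgeR (medians -0.16, -0.30 and 0.17), with 2, 1 and 1 of them at an unadjusted p under 0.05, and no complex II subunit had counts. Most subunits have no merged peak and so are not covered by these counts.

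Calls among the factors for mitochondrial DNA and RNA were mostly toward lower levels at S6 than at S0, and likewise at S3 against S0. Of the genes for mtDNA replication and transcription, 4 of the 7 tested were lower and 0 higher (median -1.17). They included TFAM, which packages mitochondrial DNA and starts its transcription, at -2.37 (SE 0.43, adjusted p = 0.000411) and the replicative helicase TWNK at -1.43 (SE 0.31). Of the factors for mitochondrial RNA processing and decay, 8 of 14 were lower and 1 higher (median -1.27), with TRMT10C, a subunit of the mitochondrial RNase P that cuts out tRNAs, at -2.06 (SE 0.27), ANGEL2 at -1.95 (SE 0.87) and FASTK at 1.22 (SE 0.43). Of the enzymes that modify mitochondrial RNA, 5 of 15 were lower and 0 higher (median -0.74), led by the tRNA methyltransferases METTL8 at -2.26 (SE 0.40) and TRMT5 at -1.52 (SE 0.27). Regulators of mitochondrial biogenesis had 0 of 6 called by edgeR (median -0.63), 2 being at an unadjusted p under 0.05. At S3 against S0, 4 of the 7 mtDNA genes were lower and 0 higher (median -1.21), 5 of the 14 RNA processing genes were lower and 2 higher (-0.64), and 3 of the 15 RNA modification genes were lower and 0 higher (-0.54), beside 13.8% of all genes lower and 15% higher.

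Glycolysis genes went both ways, with 3 of 12 higher and 2 lower (median 0.25). The phosphofructokinase PFKP (1.80, SE 0.56) and the enolase ENO2 (1.51, SE 0.25) were higher, while the hexokinase HK1 (-1.53, SE 0.35) and the lactate dehydrogenase subunit LDHB (-1.46, SE 0.16) were lower. Genes of the integrated stress response, which many mitochondrial faults switch on, had 2 of 10 higher and 2 lower (median 0.42). The stress cytokine GDF15 (3.39, SE 0.35) and DDIT4, an inhibitor of mTORC1 (2.33, SE 0.27), were higher, while PSAT1, a serine synthesis enzyme (-2.24, SE 0.55), and CHAC1, which degrades glutathione (-2.18, SE 0.63), were lower. Cytosolic ribosomal protein genes had 1 of 20 higher and 3 lower (median -0.50).

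Between S3 and S4 none of the mtDNA, RNA processing or RNA modification genes was called by edgeR, and 0, 0 and 2 of them had an unadjusted p under 0.05. The integrated stress response list had 3 of 10 higher at S4 and 0 lower (median 1.16), beside 1.49% of all genes called higher. These were CHAC1 (3.05, SE 0.64), DDIT4 (2.52, SE 0.28) and SESN2, a stress-induced inhibitor of mTORC1 (1.32, SE 0.26). The glycolysis list had 2 of 12 higher and 0 lower (median 0.55), ENO2 (1.04, SE 0.26) and the hexokinase HK2 (1.14, SE 0.28). From S4 to S6, where 2.85% of all genes were called higher and 2.33% lower, the stress response list had 1 of 10 higher, GDF15 (2.70, SE 0.34), and 2 lower, SESN2 (-1.11, SE 0.26) and the transcription factor DDIT3 (-1.20, SE 0.32), with a median of -0.66. The glycolysis list had 2 of 12 higher, ENO2 (1.68, SE 0.26) and HK1 (1.09, SE 0.35), and the RNA modification list 1 of 15, YBEY, an rRNA endonuclease (1.16, SE 0.24).

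Nuclear copies of mitochondrial genes, pseudogenes nearly identical in sequence to parts of them, were lower at S6 as well. Of the 4 with counts, MTND1P23 (-2.07, SE 0.40), MTATP6P1 (-1.57, SE 0.26) and MTCO1P12 (-1.33, SE 0.29) were lower at S6 than at S0, and MTND2P28 (-0.95, SE 0.31) was not called. Their IP to input ratio followed the mitochondrial one, with -8.71 and -8.29 in H1 S4 where the mitochondrial genes had -8.57 and -8.24. How reads that fit both a gene and its copy were assigned is not stated in the sources used here, so the counts of MT-ND1, MT-ND2, MT-CO1, MT-ATP6 and MT-ATP8 may lack reads given to the copies.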

How the data were processed

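The deposited counts are whole numbers of reads per merged peak in 16 input and 16 IP libraries, made by the authors from poly(A)-selected, sonicated RNA: with MeRIPtools they called peaks in 50-bp bins on the Ensembl 94 annotation, merged them and counted reads. The aligner and genome build are not given in the sources used here. Counts were summed over the peaks of each gene, so a gene's level covers its peaks alone. Symbols were found for 7938 of 7978 genes. edgeR 4.0.16 (R 4.3.3, limma 3.58.1) tested all genes or peaks with a total of at least 10, with TMM scaling, the quasi-likelihood test and Benjamini-Hochberg adjustment over all of them. DESeq2 1.42.0 was the alternative. Standard errors were derived from the fold change (log2) and the F statistic. Per-gene ratios for single preparations are of CPM, those per peak with 0.5 added to each count.

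Shares were compared by two-sided exact permutation tests over libraries (scipy 1.17.1), adjusted over 4 comparisons, or over 15 genes for sign-flip tests, with a threshold of 0.1. An IP library and the input with its number were taken as 1 RNA preparation. The study's methods say that input was set aside before the IP, and the match by number rests on the labels. Deviations of matched input and IP libraries from the group mean over peaks correlated at -0.154 to 0.0452, so the counts do not show the match. Every MT- gene is named or counted. Of each nuclear list, up to 2 called genes with the largest rise and 2 with the largest fall between S0 and S6, with a mean of at least 1 CPM, are named. The peaks named are the one with the largest called fall in each of the 4 genes in which that fall from S3 to S4 was largest, and the rRNA peak called from S4 to S6. This rule, and YBEY, SESN2, HK2 and DDIT3, were chosen after the values were seen. The members and lists were chosen with earlier results of these data known. No replicates were identical within sampling noise, but H1 replicates were closer to it than MEL1 ones. The chi-square per degree of freedom between replicates was 1.77, 2.06 and 2.18 in H1 S6, S0 and S3 input and 14.5 in H1 S4 input. It was 4.94 to 27.7 in MEL1 input, 2.67 to 25.9 in H1 IP and 20.4 to 65.9 in MEL1 IP. The scripts were tested on simulated data. Alternatives were normalization, the low-count filter, covariates, blocks, each line alone and each library left out.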

Additional observations from a re-analysis of the deposited data

Results flagged for a closer look

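The change of the input level differed between H1 and MEL1 (edgeR interaction, called at adjusted p under 0.1 and 2-fold) for the following genes, given as the H1 minus the MEL1 log2 fold change. From S0 to S3 it was 1.87 for MT-ATP6, 1.20 for MT-ATP8, 1.53 for MT-CO2, 2.26 for MT-CO3 and 1.61 for MT-CYB. For the complex I subunits it was 1.78 for MT-ND1, 2.27 for MT-ND2, 3.47 for MT-ND3, 1.43 for MT-ND4, 1.32 for MT-ND4L, 1.07 for MT-ND5 and 2.91 for MT-ND6, and for the rRNAs 1.29 for MT-RNR1 and 2.20 for MT-RNR2. From S3 to S4 it was -1.54 for MT-ATP6, -1.52 for MT-ATP8, -1.24 for MT-CO2, -1.71 for MT-CO3 and -1.51 for MT-CYB. For the complex I subunits it was -1.43 for MT-ND2, -2.94 for MT-ND3, -1.37 for MT-ND4, -1.25 for MT-ND4L, -1.98 for MT-ND5 and -1.89 for MT-ND6, and for the rRNAs -1.10 for MT-RNR1 and -1.65 for MT-RNR2. From S4 to S6 it was -1.04 for MT-ND1 and 1.36 for MT-ND3, and from S0 to S6 1.89 for MT-ND3 and -1.03 for MT-ND5.

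The methylation change of peaks, the stage difference in IP relative to input, differed between the lines for 44 of the 47 peaks from S0 to S3 (12.2% of all peaks) and 34 from S0 to S6 (6.52%). From S3 to S4 it differed for 34, all with H1 lower (14% of all peaks in that direction). From S4 to S6 it differed for 40, all with H1 higher (12.3% in that direction).

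A single library stood far from the other 3 of its stage in 6 of 132 groups of 4 values tested, and chance alone marks about 1 in 20 groups. MEL1 S0 replicate 1 had 8771 CPM of MT-ATP8 and MEL1 S0 replicate 2 had 49610 CPM of MT-CO1. MEL1 S6 replicate 1 had 607 CPM of MT-ND3. In MEL1 S3 replicate 2 the log2 IP to input ratio was -4.82 for MT-CO3, -3.57 for MT-CYB and -3.79 for MT-ND4.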

How the results depend on the processing

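With protein-coding genes only, the change of the input share was -8.12 (S3 vs S0) and -11.4 (S6 vs S0) and now passed, as did the IP share at S6 vs S4 (0.243). With stage labels permuted within lines, the IP share at S3 vs S0 (-0.705) and S6 vs S4 (0.208) passed, and the ratio at S4 vs S3 (-1.88) and S6 vs S4 (1.88) did not. In H1 alone the changes between successive stages were 0.412, -10.6 and -4.86 for the input share. They were -1.33, -0.726 and 0.356 for the IP share (-1.70 at S6 vs S0) and -1.46, -3.27 and 3.55 for the ratio (-1.18). In MEL1 alone they were -22.6, 1.99 and -0.0014, then -0.0790, -0.0944 and 0.0606 (-0.113), then 1.17, -0.49 and 0.20 (0.87). The difference between lines in the input share turned to 0.0052 as a log2 ratio of mitochondrial to other counts.

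Genes called at S3 vs S0 were 3 with total counts (which moved the median of all genes to 0.22, and to 0.34 at S6 vs S0), 1 scaled to the mitochondrial total, 0 in H1 and 15 in MEL1. At S4 vs S3 they were 11 in H1 and 2 in MEL1. At S6 vs S4 they were 1 in DESeq2, 2 in H1 and 1 in MEL1. At S6 vs S0 they were 9 with total counts and 1 scaled to the mitochondrial total, which by construction centres these genes near 0. Among those that then turned were MT-CO1 (0.23), MT-CO3 (0.00082), MT-CYB (0.45), MT-ND1 (0.25), MT-ND2 (0.20), MT-ND4 (0.26) and MT-ND4L (0.42), and the highest value of any MT- gene was 0.54. Between the lines 0 were called with total counts. MT-ND1 at S3 vs S0 was -1.03 in MEL1 alone, MT-ND6 0.10 in H1 alone, and at S4 vs S3 MT-ND3 and MT-ND6 were 1.58 and 1.14 in MEL1 alone. Peaks called were 39 in H1 and 35 in MEL1 at S3 vs S0. At S4 vs S3 they were 3 with TMM within library types, 3 with total counts, 34 with the preparation block, 41 in H1, 30 in MEL1 and 8 in DESeq2. In the same order, 724, 754, 1904, 12054, 3312 and 2020 of all 26104 peaks were called. At S6 vs S4 they were 7, 5, 29 and 41 in the first 4 of these settings (1684, 1599, 1780 and 10847 of all peaks), and at S6 vs S0 24 in H1 and 20 in MEL1. The peak at position 1301 of MT-RNR2 at S6 vs S4 was 0.044 in H1 alone.

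Leaving out 1 library gave -13.4 to -8.02, -6.86 to -2.01, -3.26 to -1.66 and -19.6 to -14.7 for the input share, with S6 vs S0 last of the 4 comparisons. It gave -0.963 to -0.403, -0.480 to -0.348, 0.147 to 0.278 and -1.16 to -0.604 for the IP share, and -0.57 to 0.26, -2.42 to -1.31, 1.30 to 2.42 and -0.58 to 0.25 for the ratio, which turned at S3 vs S0 and S6 vs S0 without either H1 S0 preparation. Differences that passed were then over the threshold where 3 libraries against 4 could not give a smaller p. The line difference in the input share ran from -1.32 to 0.80. Genes called were 1 to 8, 0 to 1, 0 and 11 to 15, and 0 to 1 between the lines. Leaving out 1 replicate number of a line at every stage gave 0 to 13 peaks at S4 vs S3 (0 without H1 replicate 1 and 1 without H1 replicate 2) and 1 to 16 at S6 vs S4 (1 without either H1 replicate), and 47 peaks lower in the IP at each stage.

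The cause of these changes was not tested. With the replicate number of each line as a replicate block, 5, 0, 0 and 14 genes were called in the 4 comparisons, as without it. The deviations of same-numbered samples correlated at -0.0078 to 0.0522 in H1 and at 0.0656 to 0.128 in MEL1, where 4 of 6 stage pairs were over 0.1. The main fits did not take the numbers as pairs, although the MEL1 correlations were all above 0. IP counts of single digits at S4 limit the peaks there.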
